A study of Mus musculus with 8 samples.

Results

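The comparison described here is between Mesp1 reporter positive cells of the mouse embryo at embryonic day (E) 7.5 and the same sorted population at E6.5. It used the 4 GFP+ arrays of the 8 in the series, 2 at each stage, and was read across all 11581 annotated genes that passed a filter on low signal, as the difference between stages within each replicate number. All embryos were Mesp1-rtTA/Teto-H2B-GFP: the Mesp1 regulatory sequence drives a tetracycline transactivator, which switches on a histone-bound nuclear GFP. The groups were GFP+ cells at E6.5, GFP+ cells at E7.5, GFP- cells at E6.5 and GFP- cells at E7.5, with 2 arrays each, and carried no other allele named in the labels. Each array held amplified RNA of 50 living cells. The labels call the arrays biological replicates 1 and 2 without saying whether embryos or litters were separate, so p-values measure the spread between these samples. GFP sorting reads a protein, and the histone-GFP fusion is stable, so a GFP+ cell need not hold Mesp1 transcript when it is collected. How the transactivator was induced is not given in the sources used here.

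Mesp1 encodes a basic helix-loop-helix transcription factor that is switched on as epiblast cells pass through the primitive streak and become mesoderm. The earliest Mesp1-expressing cells contribute to the heart, its vessels and extraembryonic mesoderm, and later ones to cranial and other embryonic mesoderm. During the day between the stages compared, mesoderm leaves the streak and is divided into extraembryonic, cardiac, lateral and paraxial parts.

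The sort was checked first. Mesp1 read 9.75 and 10.03 (log2 expression, replicates 1 and 2) in GFP+ cells at E6.5, and 5.64 and 6.26 in GFP- cells of that stage. At E7.5 it read 8.75 and 8.65 in GFP+ cells and 7.76 and 8.06 in GFP- cells. GFP+ values exceeded GFP- values in both replicates at both stages, and the gap was smaller at E7.5. The summed level of 8 markers of streak mesoderm (log2 of the sum of linear values) was 13.14 and 13.04 in GFP+ cells at E6.5 and 10.08 and 10.53 in GFP- cells. At E7.5 it was 13.08 and 12.65 in GFP+ cells and 11.96 and 12.08 in GFP- cells. Of the 8, 7 lay above the array median on every GFP+ array, but also on both GFP- arrays of E7.5, and 6 did on both GFP- arrays of E6.5. The marker below it throughout was Pdgfra, a PDGF receptor of mesoderm, whose brightest probe set read 3.51 to 3.83 on the 4 GFP+ arrays, below their medians. Same-stage GFP+ arrays correlated at r = 0.958 (E6.5) and 0.944 (E7.5) across all 28898 probe sets with 1 gene symbol, unfiltered. GFP+ arrays of a shared replicate number correlated more closely (0.974 and 0.963). In bulk samples such as these, fewer cells of a type and less RNA per cell cannot be told apart.

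Few genes passed the test, and many more differed alike in both replicates. In limma with the replicate number as a block, 3 genes rose from E6.5 to E7.5 in GFP+ cells at an adjusted p under 0.05 (0.0259% of genes tested), and none fell (0.00%). These were Msgn1, Hoxb2 and Lhfp. At an unadjusted p under 0.05 there were 526 higher and 486 lower genes. With any 1 of the 8 arrays left out, GFP- arrays included, 0 genes passed, so each of these calls needs all 8 arrays. A descriptive rule was therefore read beside the test: a difference of at least 2-fold in the same direction within both replicates. By that rule 185 genes were higher at E7.5 (1.60%) and 69 lower (0.596%), and 30 were 2-fold apart in opposite directions (0.259%). The median difference over all genes was -0.03 on the log2 scale (interquartile range -0.24 to 0.19). Among genes higher by at least 4-fold in both replicates there were 39, against 4 lower. Of the 185 genes, 36 lay below the median of the array on both E6.5 arrays, as did 6 of the 69 on both E7.5 arrays. Such low values are called dim below, and the size of a difference against them is uncertain.

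**Figure D1:**
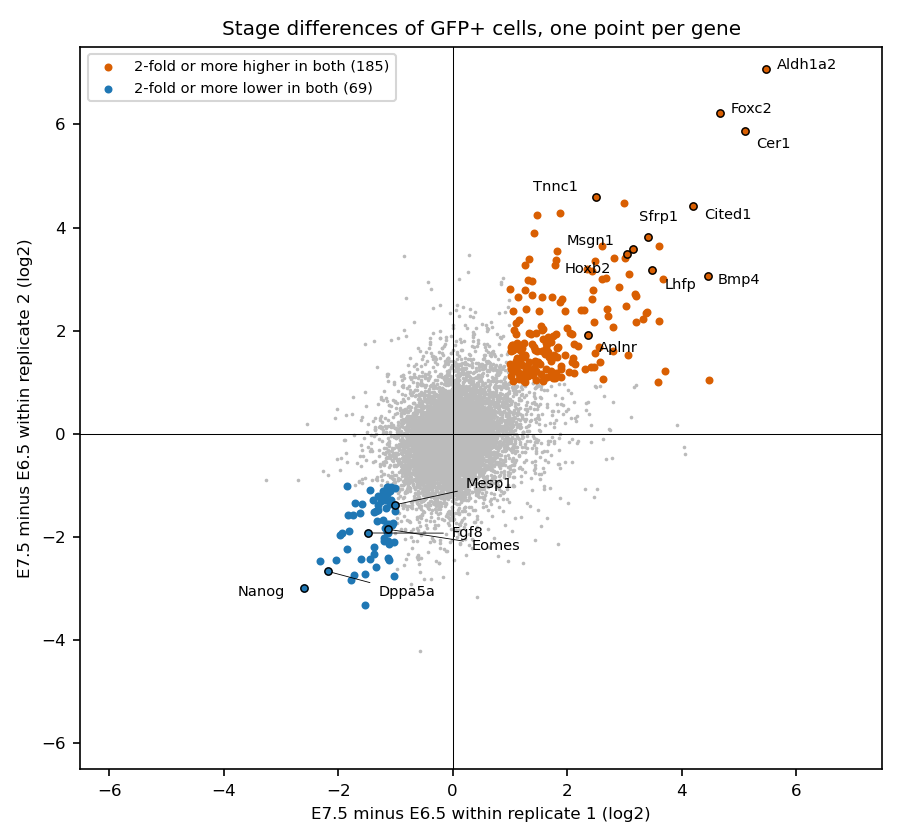
Difference between E7.5 and E6.5 in GFP+ cells for each of 11581 genes, within replicate 1 (x axis) and replicate 2 (y axis), both log2. Orange points are the 185 genes at least 2-fold higher in both replicates, blue points the 69 at least 2-fold lower, and ringed points are labelled genes. The higher genes reach past 5 in both replicates, whereas none of the lower ones is past -3 in both.

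Msgn1 encodes mesogenin 1, a basic helix-loop-helix factor of the presomitic mesoderm. It read 6.29 and 6.48 at E6.5 and 9.44 and 10.05 at E7.5. The groups did not overlap, and the rise was 10.3-fold (3.36 on the log2 scale, SE 0.22, limma adjusted p = 0.0336). Hoxb2, an anterior Hox transcription factor, read 4.22 and 4.86 at E6.5 and 7.26 and 8.35 at E7.5, a 9.59-fold rise (3.26, SE 0.20, limma adjusted p = 0.0335). Lhfp, a membrane protein of the tetraspan type, read 3.42 and 4.40 at E6.5, dim on both arrays, and 6.90 and 7.57 at E7.5. Its rise of 3.33 on the log2 scale had an SE of 0.20 and a limma adjusted p of 0.0335. Across fits that each left out 1 array, the rise stayed between 3.10 and 3.62 for Msgn1, 3.07 and 3.45 for Hoxb2, and 3.13 and 3.52 for Lhfp. The adjusted p in those fits ran from 0.0853 to 0.415 for Msgn1 and Hoxb2, and from 0.0765 to 0.415 for Lhfp. Without the replicate block, Msgn1 passed (adjusted p = 0.0408) while Hoxb2 (0.216) and Lhfp (0.196) did not. With the 4 GFP+ arrays alone all 3 had an adjusted p of 0.226.

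The sequence upstream of the start site is shown for the called genes that the RefSeq promoter table (GRCm38.p6) holds, because Wnt signalling through TCF/LEF factors and T-box factors are the textbook regulators of presomitic genes. Each line gives the 250 bases before the annotated start, 5′ to 3′ on the gene's strand, with matches to the searched motifs in capitals.
Msgn1, chr12:11208949-11209198, minus strand: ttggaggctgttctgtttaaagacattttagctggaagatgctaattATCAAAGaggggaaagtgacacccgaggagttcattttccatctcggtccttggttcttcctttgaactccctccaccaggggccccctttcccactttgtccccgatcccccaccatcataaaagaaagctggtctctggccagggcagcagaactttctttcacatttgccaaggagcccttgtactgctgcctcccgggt
Lhfp, chr3:53041297-53041546, plus strand: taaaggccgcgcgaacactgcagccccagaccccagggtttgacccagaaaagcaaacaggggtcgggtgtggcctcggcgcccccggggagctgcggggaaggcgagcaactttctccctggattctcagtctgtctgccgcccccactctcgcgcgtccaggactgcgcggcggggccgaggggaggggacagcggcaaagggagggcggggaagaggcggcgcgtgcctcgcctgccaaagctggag
The motifs searched, on both strands, were CTTTGAT for TCF/LEF, AGGTGTG for T-box factors and AGGTCA for the core hexamer bound by retinoic acid receptors. Msgn1 held 1 TCF/LEF match and no other, and Lhfp held none. Over windows of 300 bases (250 before and 50 after the start), the TCF/LEF letters stood in 3.73% of all promoters, 2.74% of those of genes tested, 3.55% of those of the genes at least 2-fold higher and 4.11% of those at least 2-fold lower. The T-box letters stood in 4.93% of promoters of genes tested, 4.73% of those of the higher and 6.85% of those of the lower genes, and the hexamer in 13%, 12.4% and 11.0%. The TCF/LEF share among the higher genes rested on 6 of 169 promoters. A match is a description of letters and not of binding.

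Genes of presomitic and paraxial mesoderm, the precursor of somites and of head mesenchyme, were the list with the highest median. Of 20 genes listed 14 passed the filter, 1 of them passed the test (Msgn1), and 11 were at least 2-fold higher in both replicates, against 1.60% of all genes. None was 2-fold lower. The median difference of the 14 was 1.77 on the log2 scale (1.5 in replicate 1, 2.24 in replicate 2). All lists were chosen with earlier results of these data known. A list's share beside that of all genes is therefore a description, here and below, and not a test. Foxc2, a forkhead factor of somitic and cardiac mesenchyme, read 3.5 and 2.79 at E6.5, dim on both arrays, and 8.18 and 9.01 at E7.5 (difference 5.45, SE 0.46, limma adjusted p = 0.0556). Foxc1, its close relative, read 4.14 and 6.34 against 7.34 and 9.01 (2.94, SE 0.45, adjusted p = 0.177). Foxc1 started from different levels in the replicates and was higher by 3.20 and 2.67 within them. Its other probe set gave 0.89, and with the mean of both the difference was 1.91. Tbx6, a T-box factor that directs cells to paraxial mesoderm, read 6.14 and 6.78 against 7.68 and 8.88 (1.82, SE 0.32, adjusted p = 0.217). Dll1, the Notch ligand of the presomitic mesoderm, read 7.62 and 7.04 against 9.19 and 9.69 (2.11, SE 0.30, adjusted p = 0.150). Hes7 and Lfng, which belong to the segmentation clock, were also at least 2-fold higher in both replicates, as were Meox1 and Tcf15 of early somites. Cited1, a transcriptional co-regulator, went from 4.61 and 4.79 to 8.82 and 9.21 (4.31, SE 0.68, adjusted p = 0.182). Pcdh19, a protocadherin that is on no list, read 4.2 and 5.22 against 7.81 and 8.85 (3.62, SE 0.34, adjusted p = 0.0717).

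**Figure D2:**
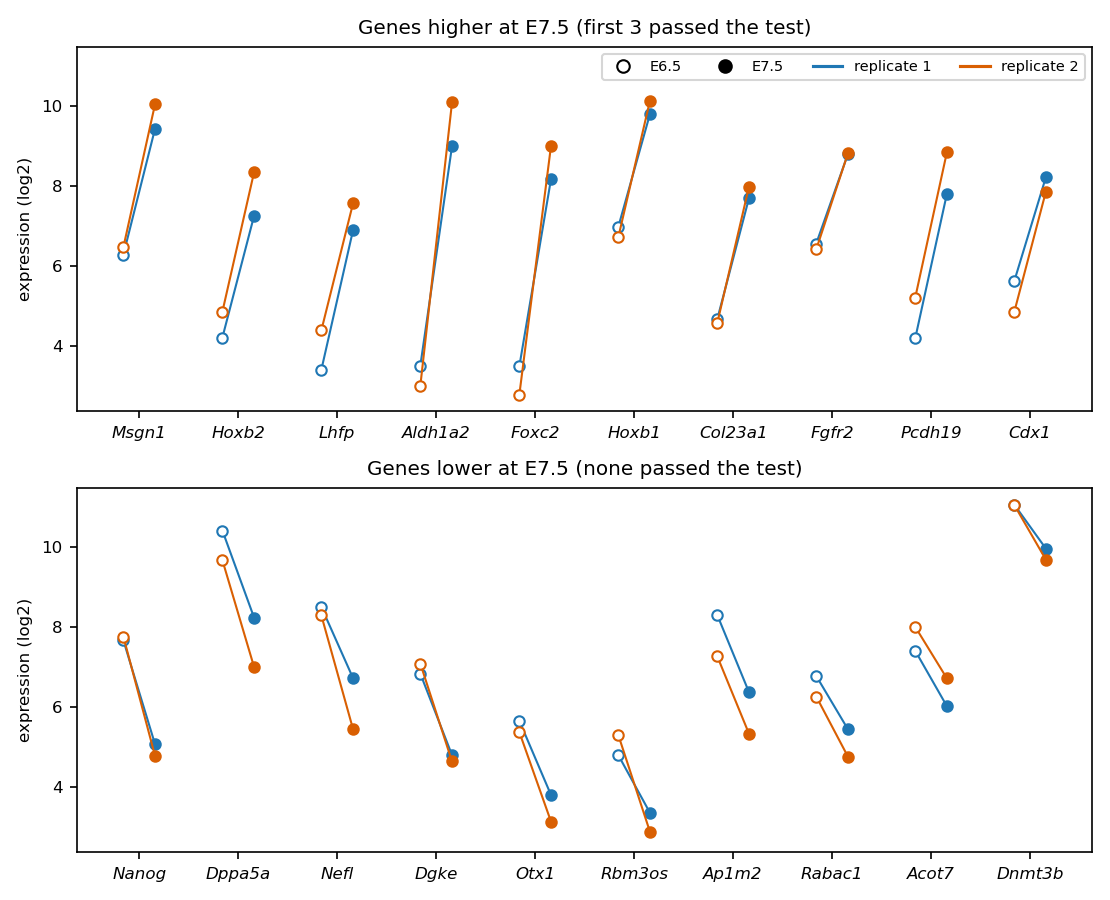
Log2 expression on each GFP+ array for 10 genes higher (top) and 10 lower (bottom) at E7.5. Open circles are E6.5, filled circles E7.5, and lines join arrays of the same replicate number. E7.5 values of Msgn1, 9.44 and 10.05, lie above its E6.5 values of 6.29 and 6.48, and Nanog runs the other way, from 7.67 and 7.76 to 5.07 and 4.78.

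Hox genes specify position along the body axis and start in the posterior streak in the order of their paralogue groups. Of 18 genes of groups 1 to 6 listed, 8 passed the filter. Hoxb2 passed the test. Hoxb2, Hoxb1, Hoxb3 and Hoxa3 were at least 2-fold higher in both replicates, against 1.60% of all genes. Hoxb1 read 6.98 and 6.72 at E6.5 and 9.80 and 10.14 at E7.5 (3.12, SE 0.25, limma adjusted p = 0.0556). Hoxb3 read 3.87 and 4.21, dim on both arrays, against 5.54 and 6.08 (1.77, SE 0.20, adjusted p = 0.103). Hoxa3 read 4.18 and 4.29, also dim, against 5.45 and 7.09. Other probe sets gave 1.04 for Hoxb3 and 0.48 for Hoxa3. Hoxb1, Hoxb2 and Hoxb3, neighbours in the Hoxb cluster, thus stood higher in both replicates. Hoxb4 of that cluster, Hoxd4 and Hoxc5 were tested and did not meet the 2-fold rule. Hoxa2 was apart on 1 E7.5 array only, at 3.13 and 5.76 after 3.08 and 3.96. Cdx1, a caudal-type factor upstream of Hox genes, read 5.62 and 4.85 against 8.22 and 7.86 (2.81, SE 0.30, adjusted p = 0.103), and Cdx2 5.34 and 5.22 against 6.91 and 7.06 (1.71, SE 0.28, adjusted p = 0.193; other probe set 1.14). TALE homeodomain proteins bind DNA together with Hox proteins. All 8 of those on the array passed the filter, and 1, Pknox2, was at least 2-fold higher in both replicates, at 4.59 and 5.94 against 7.91 and 8.16 (2.77, SE 0.46, adjusted p = 0.193). Its other probe set gave 1.30. A count of 1 in 8 (12.5%) is too small to set against the share of 1.60% over all genes. The median of the 8 was 0.27.

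Retinoic acid is made in early mesoderm from vitamin A and patterns heart and trunk. Aldh1a2, the enzyme of its final synthetic step in the embryo, had the largest difference of any gene tested. It read 3.52 and 3.02 at E6.5, dim on both arrays, and 9.0 and 10.09 at E7.5 (6.28, SE 0.55, limma adjusted p = 0.0589). The groups lay far apart, though the gene did not pass the test; it and Foxc2 passed without the replicate block (adjusted p = 0.0408 for each). The intracellular binding proteins Crabp1 (6.80 and 7.93 against 10.39 and 10.12) and Crabp2 (6.28 and 7.27 against 9.30 and 9.76) were higher in both replicates, with adjusted p of 0.176 and 0.272. Stra6, the cellular receptor for retinol uptake, read 3.56 and 4.40, dim on both arrays, against 5.99 and 7.01 (2.52, SE 0.42, adjusted p = 0.193). These 4 were the only genes at least 2-fold higher in both replicates among the 14 tested of 19 listed, and none was 2-fold lower. By the same rule 1.60% of all genes were higher and 0.596% lower. Rdh10, which makes the substrate of Aldh1a2, read 4.42 and 5.50 against 5.09 and 6.0 (0.58, SE 0.32, adjusted p = 0.708). Cyp26a1, which degrades retinoic acid, read 9.07 and 8.81 against 8.49 and 8.31, with an SE of 1.40 on its difference of -0.54. That SE takes in the GFP- arrays, where Cyp26a1 read 3.63 and 8.54 at E6.5. The median of the list was 0.13.

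Cardiac transcription regulators and contractile genes were read as separate lists, whose difference was not tested. Of 21 regulators listed 18 passed the filter, and 1, Smarcd3, a chromatin remodelling subunit of early heart progenitors, was at least 2-fold higher in both replicates (4.88 and 5.84 against 6.65 and 7.36, adjusted p = 0.343). A count of 1 in 18 (5.56%) is too small to set against the share of 1.60% over all genes. The median of the 18 was 0.05, with 0.35 in replicate 1 and -0.20 in replicate 2. Nkx2-5 read 3.63 and 4.5 against 3.70 and 4.85, and Tbx5 4.68 and 5.15 against 4.83 and 5.11. Isl1, a factor of the second heart field, read 4.91 and 5.66 against 5.40 and 5.10. The stage groups overlapped for all 3. Hand1, a factor of extraembryonic mesoderm and early heart, differed between the replicates: it went from 6.26 to 10.33 in replicate 1 and from 8.32 to 7.92 in replicate 2. Of 20 contractile genes listed 14 passed the filter, and 5 were at least 2-fold higher in both replicates, none lower. Actc1, cardiac alpha actin, read 3.51 and 4.40, dim on both arrays, against 6.60 and 7.51 (3.10, SE 0.34, adjusted p = 0.103). Tnnc1, troponin C of heart and slow muscle, read 4.02 and 3.59, again dim, against 6.52 and 8.18 (3.54, SE 0.56, adjusted p = 0.182). Tnni1, slow troponin I, read 4.90 and 4.07 against 7.90 and 8.54 (3.74, SE 0.83, adjusted p = 0.315). Myl7, the atrial myosin light chain, read 4.37 and 6.74 against 8.07 and 7.96 (2.46, SE 0.55, adjusted p = 0.315), and Myl2 was at least 2-fold higher as well. Tnnt2, cardiac troponin T, was below the filter, at 3.43 to 3.64 on the 4 arrays. The median over contractile genes was 0.31.

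Among 14 haemangioblast and endothelial genes tested, none was 2-fold apart in the same direction in both replicates, a count near the shares over all genes (1.60% higher, 0.596% lower). Their median was 0.94 in replicate 1 and -0.40 in replicate 2. Kdr, the VEGF receptor of blood and vessel progenitors, read 6.73 and 8.49 at E6.5 and 9.19 and 7.27 at E7.5. Etv2, which directs cells to that lineage, read 7.02 and 7.94 against 8.46 and 5.88. Both were higher at E7.5 in replicate 1 and lower in replicate 2, as Hand1 was. Tal1 and Lmo2, early blood factors, followed the same split in part: Tal1 read 3.17 and 3.29 against 4.94 and 3.11, and Lmo2 3.40 and 3.99 against 5.57 and 4.34. Both were dim on every GFP+ array except E7.5 replicate 1, so the size of their differences is uncertain. Among 10 erythroid genes tested, 1, Car2 (carbonic anhydrase 2), was at least 2-fold lower in both, at 8.86 and 8.11 against 7.04 and 6.22. The embryonic globin Hbb-bh1 stayed dim on all 4 GFP+ arrays, at 3.11 to 3.47.

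Genes of extraembryonic mesoderm and allantois had the next highest median, 1.42, with 2.22 in replicate 1 and 0.58 in replicate 2. Of 21 listed 16 passed the filter, none passed the test, 6 were at least 2-fold higher in both replicates and none was lower. Over all genes 1.60% were higher and 0.596% lower by that rule. Bmp4, a secreted signal of extraembryonic mesoderm, read 3.97 and 4.16 at E6.5, dim on both arrays, and 8.43 and 7.22 at E7.5 (3.75, SE 0.60, limma adjusted p = 0.182). Igf2, an imprinted growth factor, read 7.68 and 8.03 against 11.08 and 10.40 (2.88, SE 0.48, adjusted p = 0.199). Phlda2, an imprinted gene that restrains placental growth, read 7.66 and 9.16 against 10.72 and 10.69 (2.29, SE 0.40, adjusted p = 0.215). Foxf1, a forkhead factor of lateral and extraembryonic mesoderm, went from 4.03 to 8.50 in replicate 1 and from 7.72 to 8.77 in replicate 2. Bmp4, Igf2, Phlda2 and Foxf1 thus all had the larger difference in replicate 1, whereas Lama1 of this list had it in replicate 2 (2.48 and 3.35). Of 13 imprinted growth genes tested, Igf2, Phlda2, Cdkn1c and Dlk1 were at least 2-fold higher in both replicates and none was lower, with a median of 0.68. Cdkn1c, a cell cycle inhibitor, read 6.23 and 7.04 against 7.57 and 8.43 (1.37, SE 0.20, adjusted p = 0.154).

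Mesenchymal, matrix and guidance genes were higher in part, beside 1.60% of all genes at least 2-fold higher in both replicates and 0.596% lower. Of 16 genes of mesenchyme and epithelial-mesenchymal transition tested, 5 were at least 2-fold higher in both replicates, none lower, and the median was 0.97. Twist1, a basic helix-loop-helix factor of mesenchyme, read 4.87 and 5.78 against 6.74 and 8.33 (2.21, SE 0.31, adjusted p = 0.153). Vim, the intermediate filament of mesenchymal cells, read 6.09 and 7.17 against 8.63 and 8.85 (2.11, SE 0.32, adjusted p = 0.177). Snai1, the repressor of Cdh1 in streak cells, had the opposite sign, at 10.83 and 11.09 against 10.09 and 10.46 (-0.69, SE 0.18, adjusted p = 0.378). Of 21 matrix and integrin genes tested, 7 were at least 2-fold higher in both replicates and none lower, with a median of 0.59. Col23a1, a transmembrane collagen, read 4.68 and 4.58 against 7.70 and 7.99 (3.21, SE 0.27, adjusted p = 0.0556). Its other probe sets gave 2.87 and 0.84. Fbn2, an embryonic fibrillin, read 5.43 and 5.89 against 8.63 and 8.61 (2.96, SE 0.33, adjusted p = 0.103), and Lama1, a laminin of basement membranes, 5.71 and 5.96 against 8.20 and 9.31 (2.92, SE 0.32, adjusted p = 0.103). Fibronectin, Fn1, was high on every array, at 10.89 and 10.67 against 11.41 and 11.18. Of 26 Eph, ephrin, semaphorin and other guidance genes tested, 7 were at least 2-fold higher in both replicates, none lower, with a median of 0.60. Efnb2, an ephrin of somite borders and vessels, read 7.70 and 8.07 against 9.12 and 9.75 (1.55, SE 0.20, adjusted p = 0.121), with 0.91 to 2.15 on its other probe sets. Flrt2, a guidance protein of the heart's outer layer, read 4.26 and 4.88 against 6.16 and 7.49 (2.26, SE 0.41, adjusted p = 0.233), but its other probe sets gave 0.26 and 0.93.

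Of 17 epithelial genes tested, 3 were at least 2-fold higher in both replicates and 1 lower (shares over all genes 1.60% and 0.596%). Their median was 0.00 in the fit and -0.50 in replicate 2 alone, and -0.91 in GFP- cells. The simple-epithelium keratins Krt18 (6.08 and 6.78 against 9.29 and 8.95, adjusted p = 0.120) and Krt8 (7.56 and 7.31 against 9.40 and 9.0, adjusted p = 0.139) were higher in both replicates, as was Krt19. Ap1m2, an adaptor subunit of epithelial protein sorting, read 8.30 and 7.27 against 6.38 and 5.34 (-1.93, SE 0.22, adjusted p = 0.103). Cdh1, E-cadherin, read 5.84 and 6.14 against 5.84 and 5.36. Epcam, an epithelial adhesion protein, went from 8.82 to 8.32 in replicate 1 and from 8.20 to 5.39 in replicate 2.

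**Figure D3:**
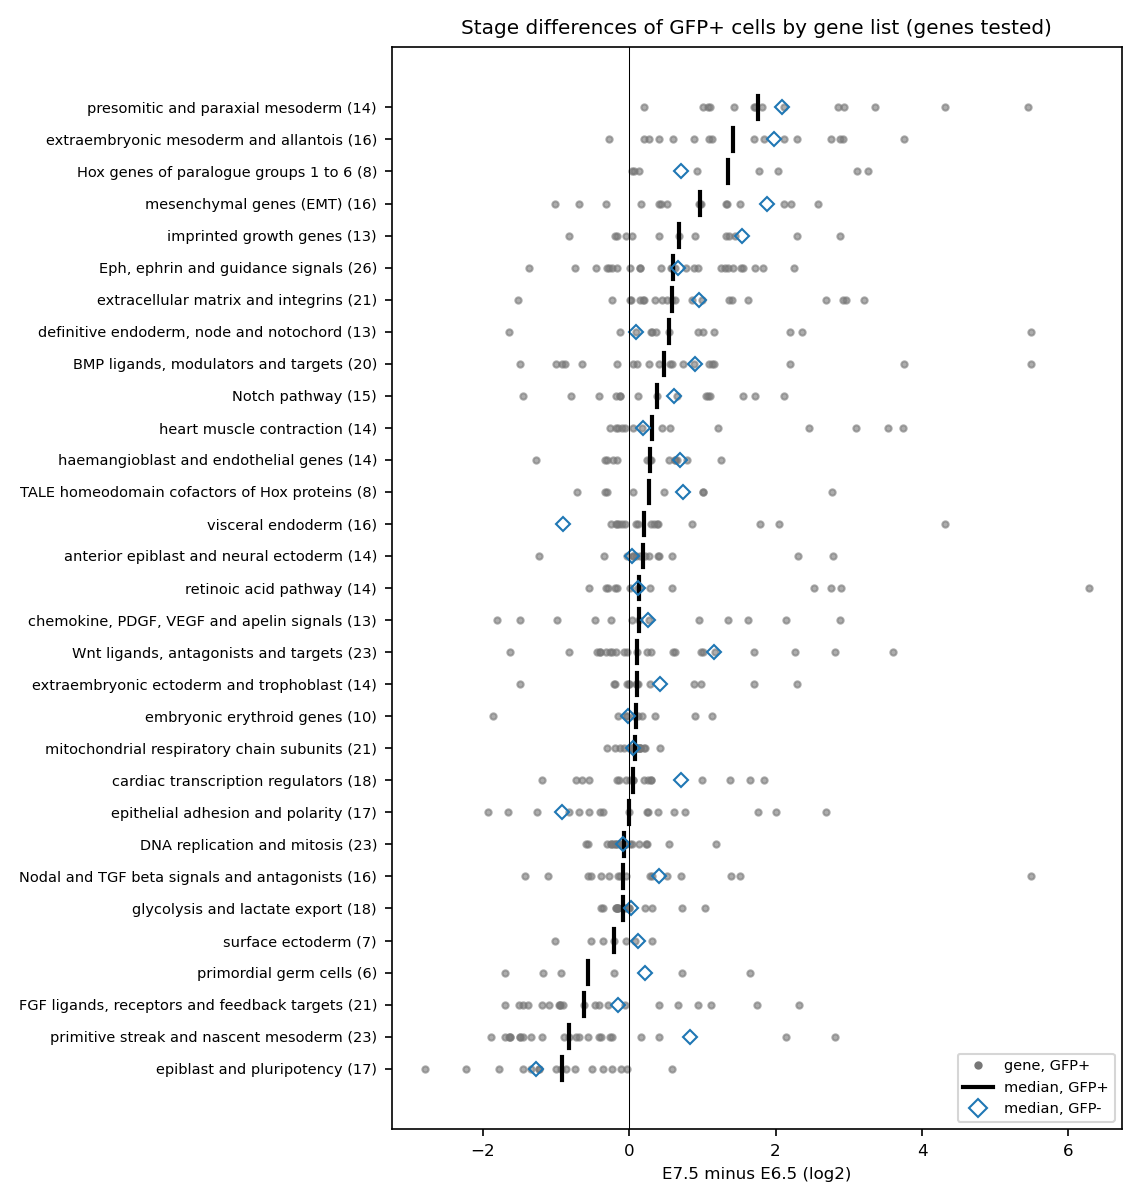
Difference between E7.5 and E6.5 (log2) in GFP+ cells for the tested genes of 31 lists. Grey points are genes, black bars list medians, blue diamonds the list medians in GFP- cells, and the number of genes tested is in brackets. Medians in GFP+ cells run from -0.92 (epiblast and pluripotency) to 1.77 (presomitic and paraxial mesoderm).

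Signalling genes were read by pathway. Over all genes, 1.60% were at least 2-fold higher in both replicates and 0.596% lower. For FGF, 2 of 21 genes tested were at least 2-fold higher in both replicates and 4 lower, with a median of -0.61. Fgfr2 read 6.57 and 6.42 at E6.5 and 8.80 and 8.82 at E7.5 (2.32, SE 0.21, limma adjusted p = 0.0589), and Fgfr3 was the other higher gene. Fgf8, the streak ligand that cells need to migrate away, read 9.07 and 8.93 against 7.6 and 7.01 (-1.70, SE 0.37, adjusted p = 0.310). Fgf5 read 8.50 and 6.58 against 7.12 and 5.06 (-1.45, SE 0.34, adjusted p = 0.315; other probe set -0.63), and Il17rd, a feedback inhibitor, 7.17 and 6.43 against 5.86 and 4.75 (-1.5, SE 0.32, adjusted p = 0.293). Spry2, another feedback inhibitor, was also at least 2-fold lower. The ligand Fgf3 had the opposite sign, with a difference of 0.40 (SE 0.61).

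For BMP, 3 of 20 genes tested were at least 2-fold higher in both replicates: Bmp4, above, and the antagonists Cer1 and Nog. The median of the 20 was 0.48, but the replicates differed in sign, with 1.02 in replicate 1 and -0.38 in replicate 2. The shares over all genes, for this and the next pathways, were 1.60% higher and 0.596% lower. Cer1, which binds Nodal, BMP and Wnt ligands, read 4.56 and 4.0 against 9.67 and 9.86, a difference of 5.49 with an SE of 1.26 (adjusted p = 0.315), and its other probe set gave 2.90. The fit takes its spread from all 8 arrays, and Cer1 read 5.49 and 9.78 in GFP- cells at E6.5. Nog read 4.22 and 4.39 against 5.96 and 7.04. Id1, a BMP target, had the opposite sign, at 8.51 and 9.28 against 7.91 and 6.91. For Nodal and TGF beta, Cer1, Smad3 and Tgfb2 were at least 2-fold higher and Lefty1 lower among 16 tested. Lefty1, a Nodal inhibitor, read 6.84 and 6.25 against 4.99 and 5.25, and Nodal itself 6.96 and 6.95 against 6.70 and 6.09 (-0.56). The other probe set of Nodal gave -1.60. For Wnt, Sfrp1, Cdx1 and Lgr5 were at least 2-fold higher among 23 tested and none lower. Lgr5 read 2.77 and 2.51 at E6.5, dim on both arrays, against 4.03, also dim, and 5.78. Sfrp1, a secreted Wnt antagonist, read 5.04 and 4.86 against 8.45 and 8.67 (3.61, SE 0.47, adjusted p = 0.128). Wnt3, the streak-inducing ligand, read 6.69 and 6.74 against 5.86 and 4.31. For Notch, Dll1, Notch1, Lfng and Hes7 were at least 2-fold higher and Hes1 lower among 15 tested. Aplnr, the apelin receptor of migrating mesoderm, read 8.52 and 8.68 against 10.89 and 10.60 (2.14, SE 0.24, adjusted p = 0.105), and its ligand gene Apln 6.61 and 4.58 against 4.42 and 3.78. Vegfa was at least 2-fold higher too, at 6.48 and 7.36 against 8.25 and 8.85, though its other probe set gave 0.36. It and Igf2 and Aplnr were the 3 such genes of 13 chemokine and growth signals tested, none of which was 2-fold lower.

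Streak and epiblast genes made up the lists with the lowest medians. Of 25 streak and nascent mesoderm genes listed 23 passed the filter and none passed the test. At least 2-fold lower in both replicates were 7, and 2 were higher, against 0.596% and 1.60% of all genes. Of the 23, 4 had a difference above 0. The median of the list was -0.82 (-0.74 in replicate 1, -0.86 in replicate 2). Mesp1 was 1 of the 7, with a difference of -1.19 (SE 0.23, limma adjusted p = 0.233). Eomes, a T-box factor upstream of Mesp1, read 11.01 and 10.30 against 9.89 and 8.45 (-1.49, SE 0.38, adjusted p = 0.349). Mixl1, a homeodomain factor of the streak, read 10.91 and 10.57 against 9.89 and 7.81 (-1.89, SE 1.19, adjusted p = 0.741), and most of this difference lay in replicate 2. Gsc, of the anterior streak, read 6.86 and 6.41 against 5.66 and 4.33. Evx1, Fgf8 and Fgf5 completed the lower genes, and Cdx1 and Aplnr were the higher ones. Mesp1, Eomes, Mixl1 and Snai1 read above the array medians on both E7.5 arrays.

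Of 22 epiblast and pluripotency genes listed 17 passed the filter. At least 2-fold lower in both replicates were 5, and none was higher, against 0.596% and 1.60% of all genes. Of the 17, 1 had a difference above 0. The median of the list was -0.92 (-0.93 and -1.10 in replicates 1 and 2). Nanog, a homeodomain factor of pluripotent cells, read 7.67 and 7.76 against 5.07 and 4.78 (-2.79, SE 0.35, limma adjusted p = 0.121). It was 1 of 4 genes at least 4-fold lower in both replicates. The others were Dppa5a, Dgke and Parp10, the last of these named after its values were seen. Dppa5a, an RNA-binding protein of pluripotent cells that is on no list, read 10.41 and 9.67 against 8.24 and 7.01 (-2.42, SE 0.20, adjusted p = 0.0556). Pim2, a kinase, read 9.14 and 9.43 against 7.42 and 6.69, and Dnmt3b, the de novo DNA methyltransferase of the epiblast, 11.06 and 11.06 against 9.96 and 9.69 (-1.23, SE 0.20, adjusted p = 0.182). L1td1 was at least 2-fold lower as well. Pou5f1 (Oct4) read 11.35 and 10.87 against 10.40 and 9.98 (-0.92, SE 0.23, adjusted p = 0.348). Otx2, an anterior epiblast factor, read 8.53 and 9.03 against 7.6 and 7.48. Otx1, its relative, read 5.66 and 5.38 against 3.81 and 3.15, dim on both E7.5 arrays (-2.04, SE 0.21, adjusted p = 0.103). Further genes lower by the rule for naming were Nefl, a neurofilament (8.50 and 8.29 against 6.73 and 5.45), Dgke, a diacylglycerol kinase (6.84 and 7.09 against 4.80 and 4.65), Rabac1, Acot7 and the antisense transcript Rbm3os.

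Genes of metabolism and division had medians near that of all genes (-0.03). None of 21 respiratory chain genes and none of 23 replication and mitosis genes tested was 2-fold apart in both replicates (medians 0.08 and -0.08). Among 18 glycolysis genes 1, the glucose transporter Slc2a3, was at least 2-fold higher, and the median was -0.09. The lack of such genes among respiratory chain and replication genes is near the shares over all genes (1.60% higher, 0.596% lower). For glycolysis, 1 gene of 18 is too few to set against them. Mki67, a proliferation marker, read 8.87 and 8.97 against 8.83 and 8.86. For Cdkn1a, a cell cycle inhibitor of the replication and mitosis list, the values were 6.09 and 5.86 against 7.49 and 6.84 (1.19; other probe set 0.64).

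Markers of other cell types were read on the same arrays. The summed level of 6 visceral endoderm markers (log2 of the sum of linear values) was 7.25 and 7.74 at E6.5 and 8.10 and 8.15 at E7.5. Dab2, an endocytic adaptor, was the member 2-fold higher in both replicates (4.79 and 5.57 against 6.90 and 7.03), with 1.65 and -0.12 on its other probe sets. Ttr read 4.66 and 5.18 against 4.70 and 4.78, Apoa1 4.72 and 5.0 against 5.51 and 4.98, and Apob was dim on all 4 arrays. Cited1 and Cer1 are also expressed in visceral endoderm, and the part of that tissue in their values was not tested. Definitive endoderm markers summed to 7.45 and 7.79 against 9.01 and 7.92, and the high array, E7.5 replicate 1, held Trh at 8.72 where the others read 6.68 to 6.83. Foxa2 was dim on both E6.5 arrays and read 4.69 and 5.49 at E7.5. The 4 epiblast markers summed to 11.6 and 11.3 against 10.8 and 10.2. Extraembryonic ectoderm markers summed to 6.40 and 6.49 against 6.79 and 6.94, with Elf5 and Esrrb dim on all 4 arrays. Neural ectoderm markers (6.47 and 6.5 against 6.62 and 6.59), erythroid markers (5.15 and 5.17 against 5.49 and 5.63) and surface ectoderm markers (6.44 and 7.5 against 6.05 and 6.61) stayed low. As lists, 14 anterior epiblast and neural genes had 2 at least 2-fold higher (Gbx2 and Ncam1), 16 visceral endoderm genes had 2 (Cited1 and Dab2), 13 definitive endoderm genes had 3 and 1 lower, 14 extraembryonic ectoderm genes had 2 and 1 lower, and 6 germ cell genes had 1 and 2 lower. The 7 surface ectoderm genes tested had none. Over all genes 1.60% were higher and 0.596% lower by this rule, and none of 7 is near those shares.

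The change between stages was then set beside that of the GFP- cells. The GFP- differences come from other arrays but share the replicate numbers. The limma calls in GFP+ cells take their spread from all 8 arrays, GFP- arrays included. In GFP- cells 39 genes passed the limma test (0.337%), and 222 were at least 2-fold higher (1.92%) and 161 lower (1.39%) in both replicates. Of the 185 genes higher in GFP+ cells, 70 were also higher in GFP- cells, which is 37.8% of the GFP+ list and 31.5% of the GFP- list. Of the 69 lower genes 13 were shared, 18.8% and 8.07% of the lists. No gene was 2-fold higher in GFP+ and lower in GFP- cells, and 3 were the reverse. Across genes the changes in both fractions correlated at r = 0.375, as a description, since genes are not independent. The genes called in GFP+ cells also had high differences in GFP- cells: 5.18 for Msgn1, 3.42 for Hoxb2 and 2.63 for Lhfp. Aldh1a2 (5.68) and Foxc2 (5.10) did as well. Because the calls used the GFP- arrays for their spread, these GFP- values are not separate evidence for the calls.

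Whether the stage change itself differed between fractions was tested by the interaction in the same fit. No gene passed (0.00%; lowest limma adjusted p = 0.286), and 755 had an unadjusted p under 0.05. Values are therefore given without a call. With a variance trend and a robust prior, 4 genes passed, all with the smaller or lower change in GFP+ cells: Aplnr, Dlc1, Fn1 and Snai1, of which Dlc1 was named after its values were seen. Mesp1 differed by -1.19 in GFP+ and by 1.96 in GFP- cells (interaction -3.15, adjusted p = 0.286). Snai1 differed by -0.69 and 1.90, Fn1 by 0.51 and 3.06, and Aplnr by 2.14 and 6.23. In each of these the GFP+ cells were already high at E6.5: Aplnr read 8.52 and 8.68 there, and 3.29 and 3.69 in GFP- cells. Hoxb1 differed by 3.12 and 6.11. On the other side, Sfrp1 differed by 3.61 in GFP+ and 0.49 in GFP- cells, Tnnc1 by 3.54 and -0.13, Stra6 by 2.52 and -0.05, and Krt18 by 2.69 and 0.44, with interaction adjusted p from 0.589 to 0.591. By list, the median of streak genes was -0.82 in GFP+ and 0.84 in GFP- cells, and that of epiblast genes -0.92 and -1.26.

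**Figure D4:**
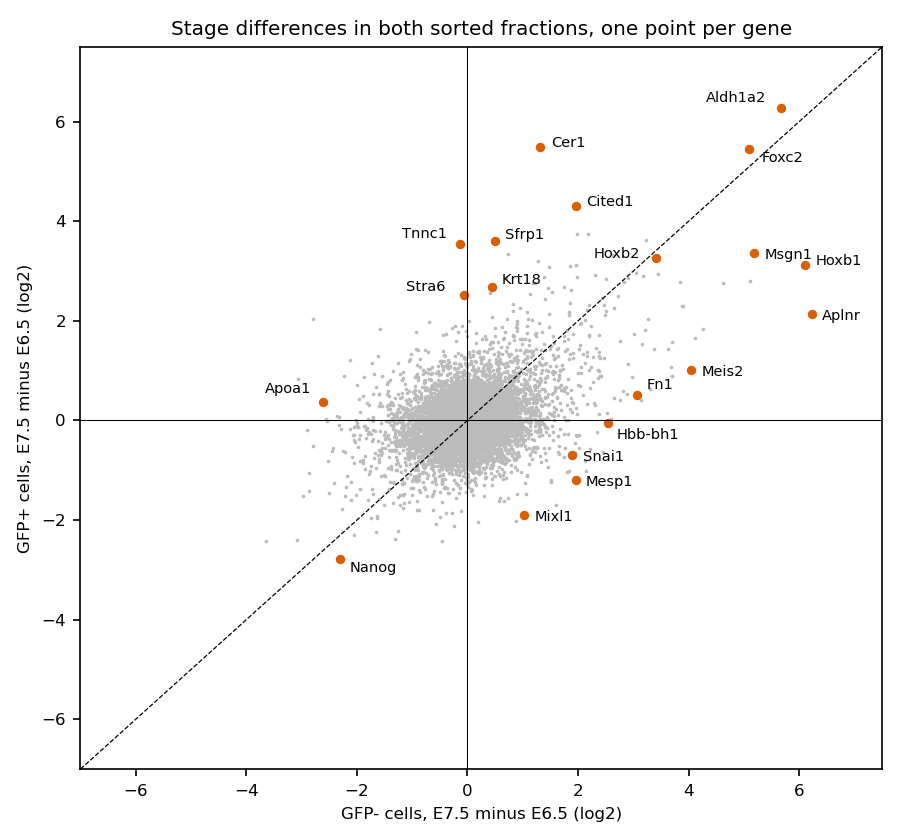
Difference between E7.5 and E6.5 (log2) for each of 11581 genes in GFP- cells (x axis) and GFP+ cells (y axis), with the dashed line marking equal values and orange points labelled genes. Aldh1a2 and Foxc2 are above 5 in both fractions, Mesp1 is at 1.96 in GFP- and -1.19 in GFP+ cells, and Sfrp1 and Tnnc1 are above 3 in GFP+ cells and near 0 in GFP- cells.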

How the data were processed

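Affymetrix mouse perfect-match arrays measured RNA of 50 sorted cells amplified until 25 PCR cycles, per the labels' protocols. The deposited table holds 1 log2 expression value for each probe set and array, which the authors computed by RMA per the submitters' processing notes (version and genome build are not given in the sources used here). The median of an array was between 4.20 and 4.23 in replicate 1, and between 4.54 and 4.59 in replicate 2. When arrays were compared value by value after sorting, they lay apart by at most 0.0399 within a replicate number and at least 0.196 across numbers. This looks like separate normalization of the arrays of each number, a step that the labels do not mention, so log2 values of different replicate numbers are not strictly on the same scale and differences are read within a number.

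From these values, 18416 probe sets with 1 gene symbol that exceeded their array's median on at least 2 of 8 arrays were kept, of 28898 with 1 symbol (551 had several, 15588 none). Each gene took its brightest kept probe set, giving 11581 genes. Of the named probe sets, 28689 matched a current gene of GRCm38.p6. Limma 3.58.1 in R 4.3.3 (lmFit, eBayes) fitted 4 group means and the replicate number as a block on all 8 arrays, with 3 residual degrees of freedom, two-sided tests and Benjamini-Hochberg adjustment over all genes. The block was used because the comparison is within replicate numbers. Deviations of same-numbered arrays correlated at r = 0.401 to 0.531, and a component with 36.2% of the variance separated the numbers. On data simulated for the GFP+ comparison with 11581 genes, 55 of 100 genes with a log2 change of 2 and 85 of 100 with a change of 4 were found, with 7 false calls. The simulated noise was normal and independent, residual spreads were shuffled over genes, and only GFP+ E7.5 arrays were changed. These settings differ from the data, so the shares found do not give the recovery there, where Aldh1a2 at 6.28 did not pass. The number of arrays limits the precision.

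Named were Mesp1, called genes, genes 2-fold apart in both replicates with the smallest p up to 10 in each direction, and of 31 gene lists the 4 listed at the start and the 5 with the smallest p, plus cell type markers. The comparison, lists and tests were chosen with earlier results of these data known, so list shares beside those of all genes are descriptions. Alternatives were no block, 4 arrays, other filters, means of probe sets, joint quantile normalization, another prior and leaving out each array.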

Additional observations from a re-analysis of the deposited data

How the results depend on the processing

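The number of genes past the threshold in GFP+ cells was 3 with no filter, a stricter filter and a filter on the pooled median. It was also 3 without the replicate block, where Aldh1a2, Foxc2 and Msgn1 passed (limma adjusted p = 0.0408 for each) and Hoxb2 and Lhfp did not. It was 0 with the 4 GFP+ arrays only, 8 with the mean of all probe sets, 1 (Lhfp) after joint quantile normalization and 12 with a variance trend and robust prior, in which 9 were higher and 3 lower. Leaving out 1 array gave 0 to 0 genes. For the interaction the count was 0 in the main analysis and 4 with the trend and robust prior, and 0 to 0 with an array left out. Genes 2-fold apart in both replicates numbered 254, and 229 to 260 under the alternatives. That count could not be made with 1 array left out, which leaves a single pair. The 3 called genes kept their direction in every alternative run. A named gene counted as moved only if its sign reversed by more than the replicate spread, and a list median if it shifted by more. Of these values, 12 to 19 moved when a GFP+ array was left out and 3 with the stricter filter or joint normalization. With no filter 6 moved, with the mean of probe sets 8 and with the pooled-median filter 0. Changes of size alone were not counted for genes: the difference of Apoe went from 0.40 to 0.17 without GFP+ E6.5 replicate 2.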

Other observations

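A list of antigen processing genes was drawn up after the values had been seen, so its values are a description. Of 19 genes, 13 were tested, none passed the test, and 12 had a lower value at E7.5 in GFP+ cells. At least 2-fold lower in both replicates were H2-Q4, a class I histocompatibility gene, the immunoproteasome subunits Psmb8 and Psmb10, the proteasome activator Psme2 and the peptide-loading protein Tapbp. This is 38.5% of the genes tested, beside 0.596% of all genes. Because the list was chosen with these values in view, the shares cannot be compared. The median was -0.81 in GFP+ cells (-0.99 and -0.93 in replicates 1 and 2) and -0.66 in GFP- cells.

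Probe sets without a gene name were fitted separately. None of 7237 passed the limma test, and 76 (1.05%) were at least 2-fold higher and 51 (0.705%) lower in both replicates.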
